A study of Mus musculus with 36 samples.

Results

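The genes described here are 10 that mouse liver biology uses as markers of Kupffer cells, the macrophages that live in the hepatic sinusoids, of 29546 genes in a table of 36 mouse liver libraries. They were taken by name: Clec4f (ENSMUSG00000014542), Timd4 (ENSMUSG00000055546), Cd5l (ENSMUSG00000015854), Vsig4 (ENSMUSG00000044206), Marco (ENSMUSG00000026390), Folr2 (ENSMUSG00000032725), Cd163 (ENSMUSG00000008845), Adgre1 (ENSMUSG00000004730), C1qa (ENSMUSG00000036887) and C1qb (ENSMUSG00000036905). All 10 had reads in every library and passed the filter on low values. The question was whether genes of resident identity were lost in cholestasis, in which bile flow is blocked or impaired, while scavenger genes rose. All groups were C57BL/6 mice, and the labels name no transgene, deletion, age or sex. Bile duct ligation, which closes the outflow of bile by surgery, gave the groups BDL7 and BDL28, collected after 7 and 28 days, with sham-operated mice (SHAM) as controls. A diet with 0.1% by weight of DDC, a porphyrinogenic compound that injures bile ducts, gave DDC7 and DDC28, with mice on control diet (CTLD). Cyclosporin A, an immunosuppressant that inhibits bile export, was given by gavage at 15 mg/kg in olive oil (CsA7 and CsA28), with mice given olive oil alone (VEHICLE). Each of the 9 groups held 4 libraries. No collection day is recorded for controls, and both time points of 1 model were set against the same 4 libraries.

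Kupffer cells are seeded before birth and sustain themselves by local division, and when they are lost, monocytes from the blood enter the liver and take on part of their program. They line the sinusoids and take up bacteria, worn red cells, modified lipoproteins and complement-coated particles. Clec4f, a C-type lectin, is found almost only on Kupffer cells, and Timd4, a receptor for phosphatidylserine on dying cells, marks those of embryonic origin. The other 8 genes are shared to different degrees with other macrophages, so their levels in whole liver do not come from Kupffer cells alone.

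In whole liver, fewer cells of a type and less RNA per cell cannot be told apart. Values are normalized counts, the gene's count divided by 1 factor per library, and each 4 values are given in the order of replicates 1 to 4. Library totals ran from 2081093 to 3770267 reads, with a median of 2826073. Single members rested on 5 reads (Timd4 in 1 CTLD library) to 1549 reads (Cd5l in 1 BDL7 library). The assay counts 3′ ends, so levels were not divided by gene length, and comparisons of level are made within a gene. A gene was called where the adjusted p of limma, fitted over all 36 libraries and corrected by Benjamini-Hochberg over 12596 tested genes, was under 0.05. The labels give 4 samples per group and do not say that each is a separate mouse, so p-values measure the spread between these libraries. The fit takes 1 estimate of that spread per gene over all groups. The p-values of BDL28 therefore do not measure its own spread, which was wide for Clec4f (SD 36.3 on a mean of 66.0).

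The labelled tissue was checked with 6 hepatocyte markers, which were detected in every group and summed to 49544 to 56346 in SHAM, 62040.5 to 76983 in CTLD and, lower, to 33223 to 38703 in BDL28 and 33354 to 40816 in DDC28. Among the libraries that stood apart from the rest of their group, BDL7 replicate 1 had a summed level of 13 general macrophage markers of 4310.2, against 2859.6 to 3018 in the other 3, and the highest BDL7 value of every member but Marco and Cd163. Without it, 6 members were called higher in BDL7 and none lower. In BDL28, replicate 1 had a sum of the same markers of 3975, against 1793 to 2382 in the other 3, and replicates 2 and 3 had the lowest values of Clec4f, Folr2 and Adgre1. In DDC7, replicate 3 had the highest value of every member but Cd163. In VEHICLE, the summed level of 6 neutrophil markers was 309, 118, 8.76 and 6.70, high in replicates 1 and 2. Among the 3 control groups an F test in limma called 0 of the 10 members (19.4% of all tested genes were called), and the smallest adjusted p was 0.055 for C1qa.

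The stretch of 250 bases before the transcription start is printed for 4 members. Marco and Cd5l rose in both cholestatic models, and Clec4f and Timd4 were lower after 28 than after 7 days of ligation. These traits overlap and do not divide the 4 genes. Cd5l was also lower after 28 than after 7 days of ligation, and Timd4 was also called higher at 7 days in both models. The sequences are from RefSeq on GRCm38.p6, an older build than the GRCm39 that the submitters' processing notes name, and they read 5′ to 3′ on the gene's strand. Capitals mark GAGGAA or, from the opposite strand, TTCCTC, a form of the site bound by the macrophage factor PU.1. Other forms of that site were not searched for. Marco lies at chr1:120505025-120505274 on the reverse strand, Cd5l at chr3:87357631-87357880 on the forward strand, Clec4f at chr6:83656117-83656366 on the reverse strand and Timd4 at chr11:46810549-46810798 on the forward strand.
Marco: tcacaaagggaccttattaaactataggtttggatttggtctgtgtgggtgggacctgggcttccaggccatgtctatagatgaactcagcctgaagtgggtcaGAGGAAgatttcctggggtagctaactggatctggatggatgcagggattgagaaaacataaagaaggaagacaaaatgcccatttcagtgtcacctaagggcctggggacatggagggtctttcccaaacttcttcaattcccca
Cd5l: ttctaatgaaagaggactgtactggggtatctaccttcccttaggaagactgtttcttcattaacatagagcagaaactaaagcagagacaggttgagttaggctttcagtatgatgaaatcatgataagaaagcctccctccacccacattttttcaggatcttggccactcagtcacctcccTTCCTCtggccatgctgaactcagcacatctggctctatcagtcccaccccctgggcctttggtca
Clec4f: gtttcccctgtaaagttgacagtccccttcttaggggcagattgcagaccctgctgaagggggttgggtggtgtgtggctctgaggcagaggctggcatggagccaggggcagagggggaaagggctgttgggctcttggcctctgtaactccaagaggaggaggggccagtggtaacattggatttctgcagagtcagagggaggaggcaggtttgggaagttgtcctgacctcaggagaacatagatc
Timd4: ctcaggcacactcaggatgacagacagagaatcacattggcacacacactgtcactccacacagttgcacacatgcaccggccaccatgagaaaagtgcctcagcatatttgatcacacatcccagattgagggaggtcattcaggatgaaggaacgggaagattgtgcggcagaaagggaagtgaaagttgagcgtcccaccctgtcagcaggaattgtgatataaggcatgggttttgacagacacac
This form is at -146 to -141 from the start of Marco and, on the opposite strand, at -66 to -61 from that of Cd5l. It is not among these letters of Clec4f and Timd4, which may still hold other forms of the site. Of the 8 members with a promoter in the table, Marco, Cd5l, C1qb and Vsig4 hold GAGGAA or TTCCTC, against 23.3% of all 32851 promoters over the same length. The nuclear receptor half-site AGGTCA, which reads TGACCT from the opposite strand and was found in 14.0% of all promoters, is present in Clec4f and Timd4 and in none of the other 6. The half-site TGCTGA of MAF factors, which reads TCAGCA from the opposite strand and was found in 16.1%, is present in Clec4f, Timd4, Cd5l, Folr2 and C1qb. These matches describe letters and do not show binding.

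After 7 days of ligation, 7 of the 10 genes were called higher than in SHAM and none lower (20.2% of all tested genes were called higher and 18.5% lower). After 7 days of DDC, also 7 were higher than in CTLD and none lower (24.7% and 22.1%). After 28 days of DDC, 6 were higher and none lower (27.9% and 24.7%). After 28 days of ligation the genes parted, with 4 higher and 2 lower than in SHAM (24.1% and 22.7%). Counted by libraries that did not overlap the controls, 7 genes were above and 0 below in BDL7 (19.8% and 19.2% of all tested genes), and 3 were above and 1 below in BDL28 (18.7% and 18.6%). In DDC7 8 were above and 0 below (23.2% and 20.8%), and in DDC28 6 and 0 (25.0% and 22.0%). Both cyclosporin A groups gave 0 calls. The median change over the 10 genes was 0.86 on the log2 scale in BDL7, 0.37 in BDL28, 0.97 in DDC7 and 0.86 in DDC28, against medians over all tested genes of 0.01 to 0.04. Day 7 and day 28 of a model share controls, so their values are not independent. Scaling by total counts instead moved the median of all genes to 0.33, 0.29, 0.38 and 0.39 in the 4 groups and the share of higher among all called genes from 52.3% to 84.2% in BDL7, 51.5% to 74.3% in BDL28, 52.8% to 82.2% in DDC7 and 53.0% to 78.5% in DDC28. Under that scaling 10, 6, 9 and 7 members were higher, and 2 were lower in BDL28.

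**Figure D1:**
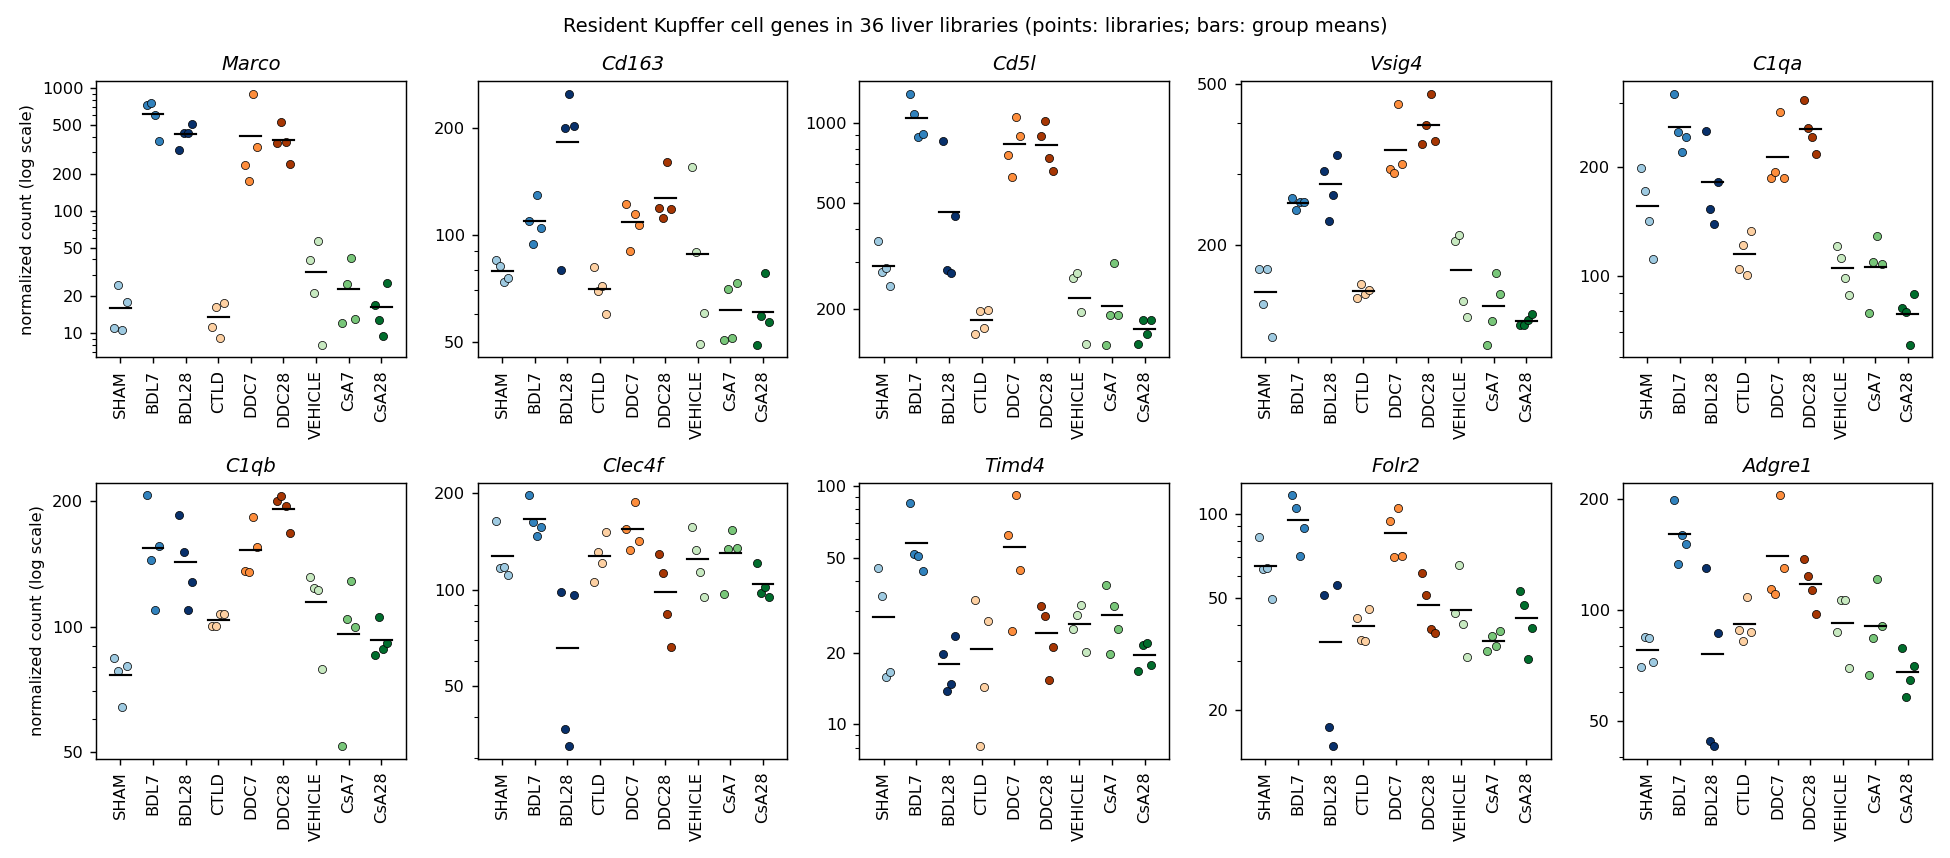
Normalized count (log scale) of the 10 genes by group, with 1 point per library and a bar at the mean of 4 libraries. Marco in the 8 BDL and 8 DDC libraries lies between 173 and 904, above all 20 other libraries, while Clec4f is lowest in BDL28, at 32.5 to 98.4.

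Marco, a scavenger receptor that binds bacteria and polyanionic particles, changed most of the 10. Its values were 11.0, 24.8, 10.5 and 17.8 in SHAM, 724, 752, 604 and 368 in BDL7 and 312, 434, 435 and 511 in BDL28. On diet they were 11.2, 16.2, 9.13 and 17.5 in CTLD, 235, 173, 904 and 329 in DDC7 and 358, 533, 364 and 242 in DDC28. Each ligated or DDC library was above every control library, and replicate 3 of DDC7 stood far above its group. On the scale of log2(value + 1) Marco rose by 5.20 ± 0.49 (SE) in BDL7, a 36.7-fold change with limma adjusted p = 2.5e-09, and by 4.70 ± 0.49 in BDL28 (adjusted p = 6.7e-09). In DDC7 it rose by 4.57 ± 0.49 (adjusted p = 1.6e-08) and in DDC28 by 4.68 ± 0.49 (adjusted p = 5.7e-09). SHAM libraries gave Marco only 8 to 20 reads, so the size of the fold is less certain than its direction.

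Cd163, the receptor that clears haemoglobin bound to haptoglobin, passed the limma test at 28 days of both models and at 7 days of neither. Its values were 85.3, 81.9, 73.6 and 75.9 in SHAM, 109, 94.6, 129.6 and 105 in BDL7 and 79.7, 199, 249.8 and 203 in BDL28. All BDL7 libraries were above all SHAM libraries, but the change of 0.46 ± 0.26 was not called (adjusted p = 0.17), except with only the compared groups in the fit (adjusted p = 0.0068) or under total-count scaling (0.78, adjusted p = 0.011). In BDL28, replicates 2 to 4 were above every BDL7 library, and replicate 1 lay within the SHAM range. The change in BDL28 was 1.08 ± 0.26, a 2.12-fold rise (adjusted p = 0.001). In CTLD, DDC7 and DDC28 the means were 70.6 ± 8.65, 108 ± 13.6 and 127 ± 22.1 (SD, n = 4). Both DDC groups lay above CTLD without overlap. DDC28 was called at 0.83 ± 0.26 (adjusted p = 0.0081), and DDC7 at 0.61 ± 0.26 was not (adjusted p = 0.055), though DESeq2 called it (adjusted p = 0.047).

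Cd5l, a secreted scavenger protein of macrophages that limits their death and binds lipids, rose in 3 of the 4 groups. Its values were 361, 276, 285 and 244 in SHAM, 1294, 1081, 891 and 911 in BDL7 and 856, 281, 274 and 447 in BDL28. The BDL7 libraries were all far above SHAM, whereas replicates 2 and 3 of BDL28 were within the SHAM range. Cd5l rose by 1.84 ± 0.26 in BDL7 (adjusted p = 2.0e-06), while in BDL28 the change of 0.52 ± 0.26 was not called (adjusted p = 0.1) and without replicate 1 it was 0.17. edgeR and DESeq2 on recovered reads called this change higher, at 0.65 and 0.68. In DDC7 and DDC28 the means were 837 ± 185 and 828 ± 160.2, against 181 ± 18.7 in CTLD (SD, n = 4). These are changes of 2.18 ± 0.26 (adjusted p = 8.7e-08) and 2.17 ± 0.26 (adjusted p = 5.5e-08), with every DDC library above every CTLD library.

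Vsig4, also called CRIg, is the complement receptor with which Kupffer cells capture opsonized particles, and it rose in all 4 groups. In SHAM, BDL7 and BDL28 its values were 175, 143, 175 and 119, then 262, 244, 255 and 255, then 304, 229.7, 266 and 334. Neither ligated group overlapped SHAM, and replicates 2 and 3 of BDL28, low for other members, were also above SHAM. The rise was 0.75 ± 0.15 in BDL7 (adjusted p = 8.7e-05) and 0.89 ± 0.15 in BDL28 (adjusted p = 4.7e-06). In CTLD, DDC7 and DDC28 it averaged 154 ± 5.26, 343 ± 68.6 and 397 ± 54.1 (SD, n = 4). The DDC changes were 1.13 ± 0.15 (adjusted p = 7.9e-08) and 1.35 ± 0.15 (adjusted p = 1.2e-09).

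C1qa and C1qb encode chains of C1q, the protein that starts the classical complement pathway and that macrophages secrete. C1qb was 83.9, 78.2, 64.2 and 80.6 in SHAM, 206, 144, 109.7 and 156 in BDL7 and 185, 151, 109.6 and 128 in BDL28. No ligated library overlapped SHAM, and C1qb rose by 0.97 ± 0.20 (adjusted p = 1.5e-04) and 0.87 ± 0.20 (adjusted p = 4.0e-04). C1qa was 198, 171, 142 and 111 in SHAM, 318, 250.2, 220.4 and 242 in BDL7 and 251, 153, 139 and 181 in BDL28, where replicates 2 to 4 lay within the SHAM range. It rose by 0.74 ± 0.18 in BDL7 (adjusted p = 0.001), and its 0.21 ± 0.18 in BDL28 was not called (adjusted p = 0.34), though total-count scaling called it (0.47, adjusted p = 0.036). With DDC, C1qa rose by 0.87 ± 0.18 at 7 days (adjusted p = 1.4e-04) and by 1.14 ± 0.18 at 28 days (adjusted p = 1.8e-06). C1qb rose by 0.54 ± 0.20 at 7 days (adjusted p = 0.023) and 0.88 ± 0.20 at 28 days (adjusted p = 3.0e-04). The DDC libraries of both chains were all above CTLD, but without replicate 3 of DDC7 the change of C1qb there was 0.45 and lost its call (adjusted p = 0.083).

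**Figure D2:**
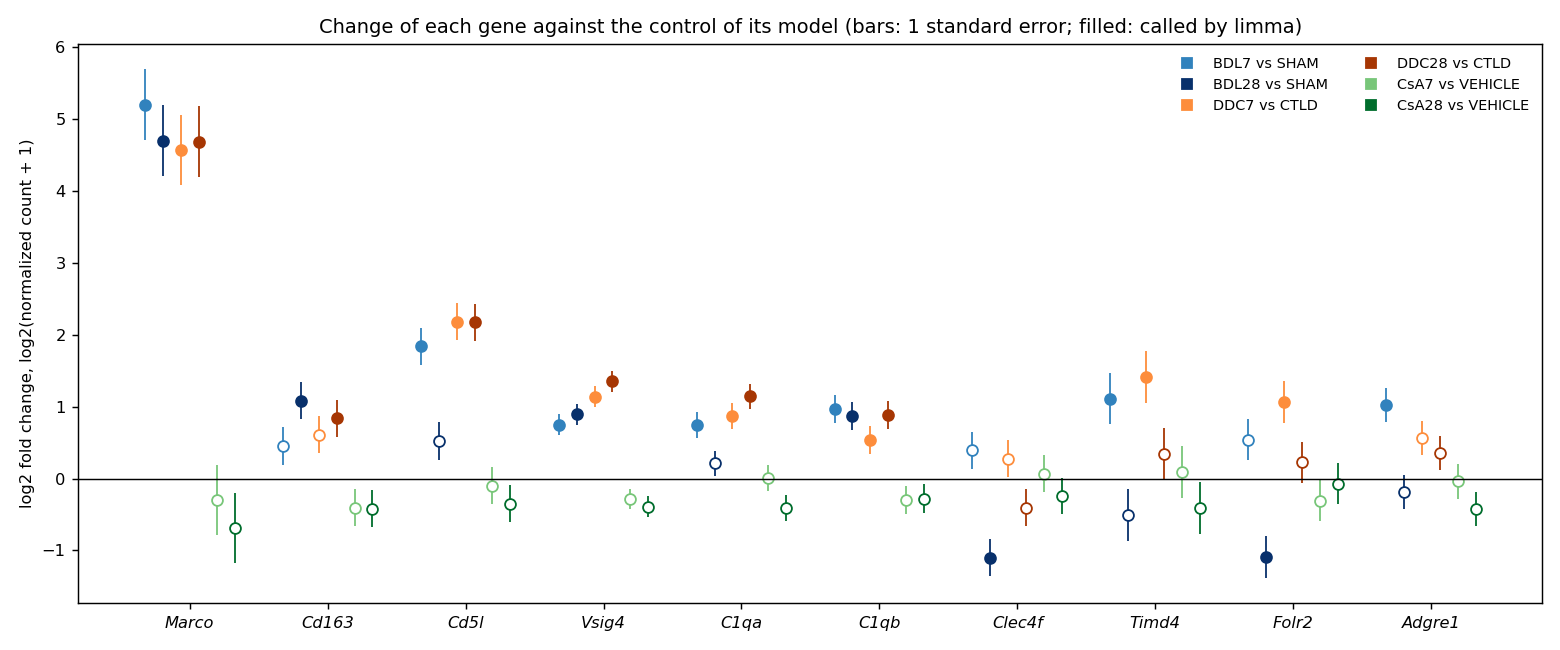
Log2 fold change of each gene against the control of its model, on log2(normalized count + 1), with bars of 1 standard error and filled points where limma called the gene. The scavenger and complement genes (Marco to C1qb) are above 0 in all 4 BDL and DDC groups, and the 2 filled points below 0 are Clec4f and Folr2 in BDL28.

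Clec4f fell in BDL28, and its change at 7 days did not pass the test in the fit over all 36 libraries. Its values were 164, 117, 118 and 111 in SHAM, 197, 163, 148 and 157 in BDL7 and 98.4, 36.8, 32.5 and 96.5 in BDL28. All 4 BDL28 libraries were below all SHAM libraries, and replicates 2 and 3 were by far the lowest. The change of 0.39 ± 0.26 in BDL7 was not called (adjusted p = 0.24), and in BDL28 Clec4f fell by 1.10 ± 0.26 (adjusted p = 7.2e-04), which is 2.14-fold lower. With only the compared groups in the fit Clec4f was called higher in BDL7 (adjusted p = 0.022), as it was under total-count scaling (0.71, adjusted p = 0.031). Leaving out 1 BDL28 library at a time gave changes in BDL28 from -1.35 to -0.83, each still called. Over the 10 other alternatives, in limma, edgeR or DESeq2, the largest adjusted p of this fall was 0.040. In CTLD, DDC7 and DDC28 the values were 105, 131, 121 and 152, then 155, 133, 188 and 142, then 129.8, 113, 84.1 and 66.1. The DDC28 libraries overlapped CTLD at their upper end, and neither 0.28 ± 0.26 (adjusted p = 0.4) nor -0.41 ± 0.26 (adjusted p = 0.19) was called. Ordered by mean over the 9 groups, Clec4f ran from 166 in BDL7 down to 98.3 in DDC28 and 66.0 in BDL28, and each group overlapped the next in that order.

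Folr2, the folate receptor beta of resident macrophages, followed Clec4f in the ligated mice. It was 82.6, 63.3, 64.2 and 49.8 in SHAM, 116, 105, 70.8 and 88.5 in BDL7 and 51.2, 17.5, 14.9 and 55.7 in BDL28. Replicates 2 and 3 of BDL28 were again far below the rest, while replicates 1 and 4 reached the lower end of SHAM. Folr2 changed by 0.54 ± 0.29 in BDL7, not called (adjusted p = 0.14), and fell by 1.09 ± 0.29 in BDL28 (adjusted p = 0.0021). With only the compared groups in the fit Folr2 was called higher in BDL7 (adjusted p = 0.017), and its fall in BDL28 was not called (adjusted p = 0.061). Total-count scaling also called it higher in BDL7 (0.86, adjusted p = 0.018). Without 1 BDL28 library at a time its change in BDL28 ranged from -1.39 to -0.78. With DDC it rose at 7 days, from 39.8 ± 5.24 to 85.0 ± 17.2 (SD, n = 4), a change of 1.06 ± 0.29 (adjusted p = 0.0027) with no overlap. At 28 days its mean of 47.4 ± 11.3 was not called against CTLD (0.22 ± 0.29, adjusted p = 0.53).

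Timd4, the marker of embryonic Kupffer cells, was called higher at 7 days in both models and at 28 days in neither. Its values were 45.4, 34.8, 15.8 and 16.6 in SHAM, 85.2, 51.9, 50.9 and 44.3 in BDL7 and 19.7, 13.8, 14.9 and 23.6 in BDL28. The highest SHAM library exceeded the lowest BDL7 library, and BDL28 overlapped the 2 lower SHAM libraries. Timd4 rose by 1.11 ± 0.36 in BDL7 (adjusted p = 0.014), a call that was lost without SHAM replicate 3, SHAM replicate 4 or BDL7 replicate 1, at changes of 0.89, 0.92 and 0.91. In BDL28 its change of -0.51 ± 0.36 was not called (adjusted p = 0.25). With DDC, Timd4 was 33.5, 8.09, 14.4 and 27.3 in CTLD, 62.4, 24.8, 91.7 and 44.6 in DDC7 and 31.5, 28.5, 15.4 and 21.1 in DDC28. The spread within CTLD and DDC7 was wide and the groups overlapped. The rise of 1.42 ± 0.36 in DDC7 was called (adjusted p = 0.0016, and 0.053 with only the compared groups in the fit), and that of 0.34 ± 0.36 in DDC28 was not (adjusted p = 0.45).

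Adgre1, which encodes the macrophage surface protein F4/80, passed the test in BDL7. Its values were 70.2, 84.4, 84.2 and 72.3 in SHAM, 199, 133, 159.5 and 150.4 in BDL7 and 129.9, 44.1, 42.7 and 86.8 in BDL28. BDL7 was above SHAM throughout, and BDL28 spanned both sides of SHAM with replicates 2 and 3 low. The rise in BDL7 was 1.03 ± 0.24 (adjusted p = 8.4e-04), and the -0.19 ± 0.24 in BDL28 was not called (adjusted p = 0.55). It averaged 91.6 ± 11.4 in CTLD, 139.5 ± 44.0 in DDC7 and 118 ± 16.8 in DDC28 (SD, n = 4). All DDC7 libraries were above CTLD, but 0.56 ± 0.24 in DDC7 (adjusted p = 0.051) and 0.36 ± 0.24 in DDC28 (adjusted p = 0.21) missed the threshold in limma. edgeR and DESeq2 called Adgre1 higher in DDC7, and the fit with only the compared groups did so in DDC7 (adjusted p = 0.016) and DDC28 (adjusted p = 0.043). Its small change in BDL28 had no stable sign, at 0.07 under total-count scaling.

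The direct test of 28 against 7 days of ligation called 6 of the 10 genes lower and none higher (16.7% of all tested genes were called lower and 14.0% higher). Folr2 fell by 1.63 ± 0.29 (adjusted p = 5.9e-05), Timd4 by 1.62 ± 0.36 (adjusted p = 8.9e-04) and Clec4f by 1.49 ± 0.26 (adjusted p = 5.7e-05). Cd5l fell by 1.31 (adjusted p = 3.4e-04), Adgre1 by 1.21 (adjusted p = 2.5e-04) and C1qa by 0.53 (adjusted p = 0.021). Over the 10 alternatives that left out no single library, in limma, edgeR or DESeq2, the largest adjusted p was higher. It was 0.026 for Folr2, 0.0041 for Timd4, 0.022 for Clec4f, 0.027 for Cd5l and 0.032 for Adgre1. The BDL28 and BDL7 libraries did not overlap for Clec4f, Timd4, Cd5l, Folr2 and Adgre1, 5 of 10 genes lower and none higher, where 12.1% of all tested genes were lower and 10.9% higher without overlap. The call of C1qa was lost without BDL7 replicate 1, BDL28 replicate 2 or BDL28 replicate 3, at -0.42, -0.46 and -0.42, and with only the compared groups in the fit (adjusted p = 0.062). Marco changed by -0.50 ± 0.49 (adjusted p = 0.47), Vsig4 by 0.14 ± 0.15 (adjusted p = 0.48) and C1qb by -0.10 ± 0.20 (adjusted p = 0.75), none of them called. Cd163 moved upward, by 0.63 ± 0.26 (adjusted p = 0.068), and was called higher by edgeR and DESeq2, at 0.73 and 0.74, and by limma without BDL28 replicate 1, at 0.98.

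Between 7 and 28 days of DDC, limma called none of the 10 genes (2.07% of all tested genes were called higher and 3.63% lower), and 3 had an unadjusted p under 0.05. These were Timd4 at -1.08 ± 0.36 (adjusted p = 0.071), Folr2 at -0.84 ± 0.29 (adjusted p = 0.078) and Clec4f at -0.68 ± 0.26 (adjusted p = 0.12). edgeR and DESeq2 on recovered reads each called 2 of these lower, Timd4 and Folr2. The DDC28 libraries of Clec4f and Folr2, 2 of 10 genes, were all below those of DDC7, and none was above (7.54% and 7.49% of all tested genes).

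The effects of ligation and DDC were also set against each other, each relative to its own controls. At 7 days none of the 10 genes differed between the models (3.78% of all tested genes were called higher with ligation and 4.68% lower), and none had an unadjusted p under 0.05. At 28 days 3 were lower with ligation and none higher (5.59% and 4.69%): Cd5l with a difference of -1.65 ± 0.37 (adjusted p = 0.0053), Folr2 of -1.32 ± 0.40 (adjusted p = 0.034) and C1qa of -0.93 ± 0.25 (adjusted p = 0.016). Clec4f, called in BDL28 and not in DDC28, did not pass this test (-0.70 ± 0.36, adjusted p = 0.22). The difference for Folr2 lost its call in 12 alternatives, among them edgeR (adjusted p = 0.061) and the fit without BDL28 replicate 2 (-1.07). The controls enter these differences. Cd5l was 244 to 361 in SHAM against 161 to 199 in CTLD, and Folr2 was 49.8 to 82.6 against 35.2 to 45.8, both without overlap.

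**Figure D3:**
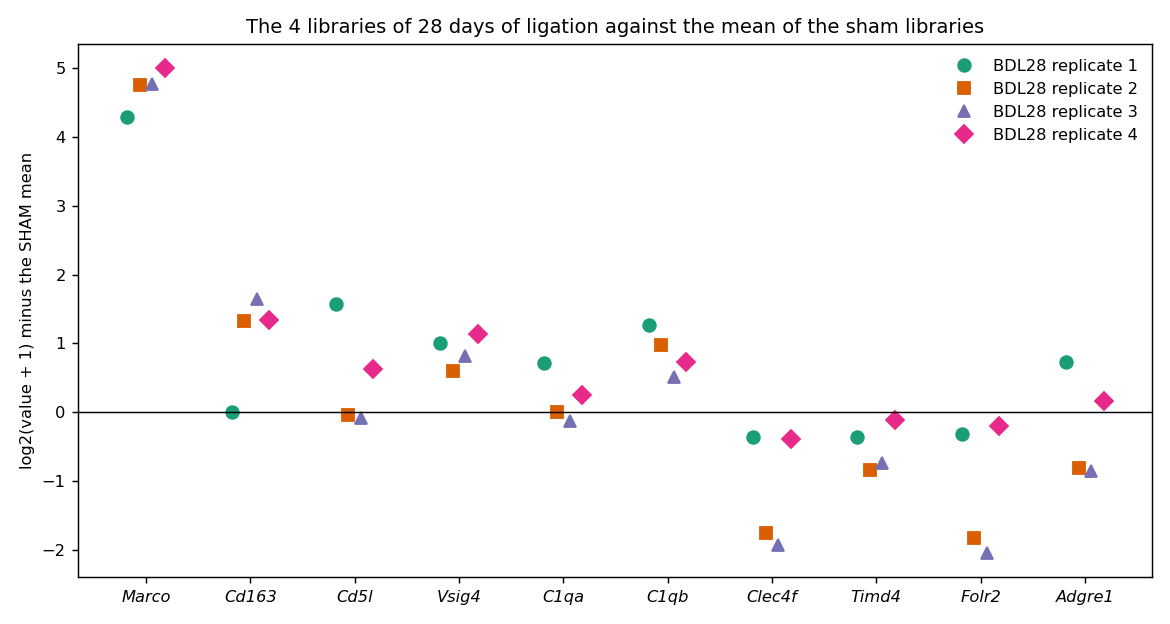
Level of each gene in the 4 BDL28 libraries, as log2(value + 1) minus the mean of the 4 SHAM libraries. Replicates 2 and 3 are the lowest for Clec4f, Folr2 and Adgre1, and for Cd163 replicate 1 is the lowest, while all 4 libraries are high for Marco.

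Within BDL28 the genes did not rise or fall as 1 block, as the plot of the 4 libraries shows. Replicate 1 had the highest Cd5l, Adgre1, C1qa, C1qb and Clec4f of its group and the lowest Cd163 and Marco. Markers of other macrophages and of other cell types moved with this split. The summed level of general macrophage markers in BDL28 was 3975, 1793, 1831 and 2382, that of 10 monocyte markers 794, 243, 409 and 407 and that of 10 lipid-associated macrophage markers 7648, 3233, 2971 and 3853. Replicate 1 was highest in all 3 sums, as it was in Cd5l and Adgre1. It was also highest in lists that are not of macrophages. Cholangiocyte markers summed to 2836, 976, 1271 and 1131, and neutrophil markers to 479, 254, 257 and 190. Sinusoidal endothelial markers summed to 838, 573, 532 and 710, whereas hepatocyte markers were highest in replicate 4. Spp1 is in both the lipid-associated and the cholangiocyte list. The summed level of 4 cavity macrophage markers, 145, 476, 299 and 301, was instead lowest in replicate 1. Only 2 of these 4 genes passed the filter on low values, and Alox15 was at 0 in BDL28. The same sum was 114 to 147 in SHAM and reached 499 in VEHICLE. The part of these markers in the results was not tested.

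Ratios between 2 genes within a library do not depend on the library's scaling factor, and they are given as a description with no test. Marco per Adgre1 was 0.125 to 0.294 in SHAM, 2.45 to 5.64 in BDL7 and 2.40 to 10.2 in BDL28. With DDC it went from 0.0843 to 0.200 in CTLD to 1.57 to 4.42 and 2.48 to 4.30. No ligated or DDC library overlapped a control. Cd5l per Adgre1 was 6.59, 6.38, 6.41 and 5.15 in BDL28, close to one another, although Cd5l and Adgre1 each varied about 3-fold there. Cd163 per Adgre1 in BDL28 was 0.614, 4.52, 5.85 and 2.33, so that replicates 2 to 4 were above every library of the other groups, whose highest was 1.78 in VEHICLE.

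Clec4f per Adgre1 went the other way, from 1.38 to 2.33 in SHAM to 0.925 to 1.22 in BDL7 and 0.758 to 1.11 in BDL28. It went from 1.12 to 1.74 in CTLD to 0.922 to 1.36 in DDC7 and 0.679 to 0.948 in DDC28. The groups BDL7, BDL28 and DDC28 lay below their controls without overlap. In BDL7 the lower ratio did not come with a lower Clec4f. Its mean was 166 there against 127 in SHAM, while that of Adgre1 was 160 against 77.8. Set against Csf1r, the growth factor receptor of all macrophages, Clec4f was 0.777 to 1.06 in SHAM, 0.592 to 0.717 in BDL7 and 0.225 to 0.616 in BDL28. With DDC it was 0.615 to 0.921 in CTLD, 0.670 to 0.798 in DDC7 and 0.256 to 0.443 in DDC28. BDL7, BDL28 and DDC28 were again below their controls without overlap. VEHICLE, at 0.555 to 0.624, was as low as BDL7 by this ratio, so the control groups differ too.

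The ratios of other members did not all follow Clec4f. Vsig4 per Adgre1 was 1.40 to 1.94 in CTLD, and higher without overlap in DDC7 (2.18 to 2.73) and DDC28 (2.59 to 4.18). In BDL7 (1.32 to 1.83) and BDL28 (2.34 to 6.22) it overlapped SHAM (1.64 to 2.49). C1qa per Adgre1 was 2.06 to 2.23 in DDC28, above CTLD at 0.928 to 1.53, and overlapped the controls in BDL7, BDL28 and DDC7. Timd4 per Adgre1 was 0.188 to 0.647 in SHAM, 0.294 to 0.429 in BDL7 and 0.152 to 0.348 in BDL28, and 0.0980 to 0.379 in CTLD, 0.225 to 0.548 in DDC7 and 0.136 to 0.230 in DDC28. Each of these groups overlapped its control. Folr2 per Adgre1 was 0.689 to 1.18 in SHAM, 0.444 to 0.786 in BDL7 and 0.348 to 0.642 in BDL28, where it lay below SHAM without overlap. With DDC it was 0.325 to 0.525 in CTLD, 0.512 to 0.828 in DDC7 and 0.344 to 0.450 in DDC28, with overlap in both. Folr2 per Csf1r was instead 0.347 to 0.455 in DDC7, above all of CTLD at 0.218 to 0.267, and 0.146 to 0.210 in DDC28, below all of CTLD. In the ligated mice this ratio was 0.290 to 0.462 in BDL7 and 0.107 to 0.356 in BDL28. Both overlapped SHAM at 0.347 to 0.550, so the separation in BDL28 held against Adgre1 only.

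**Figure D4:**
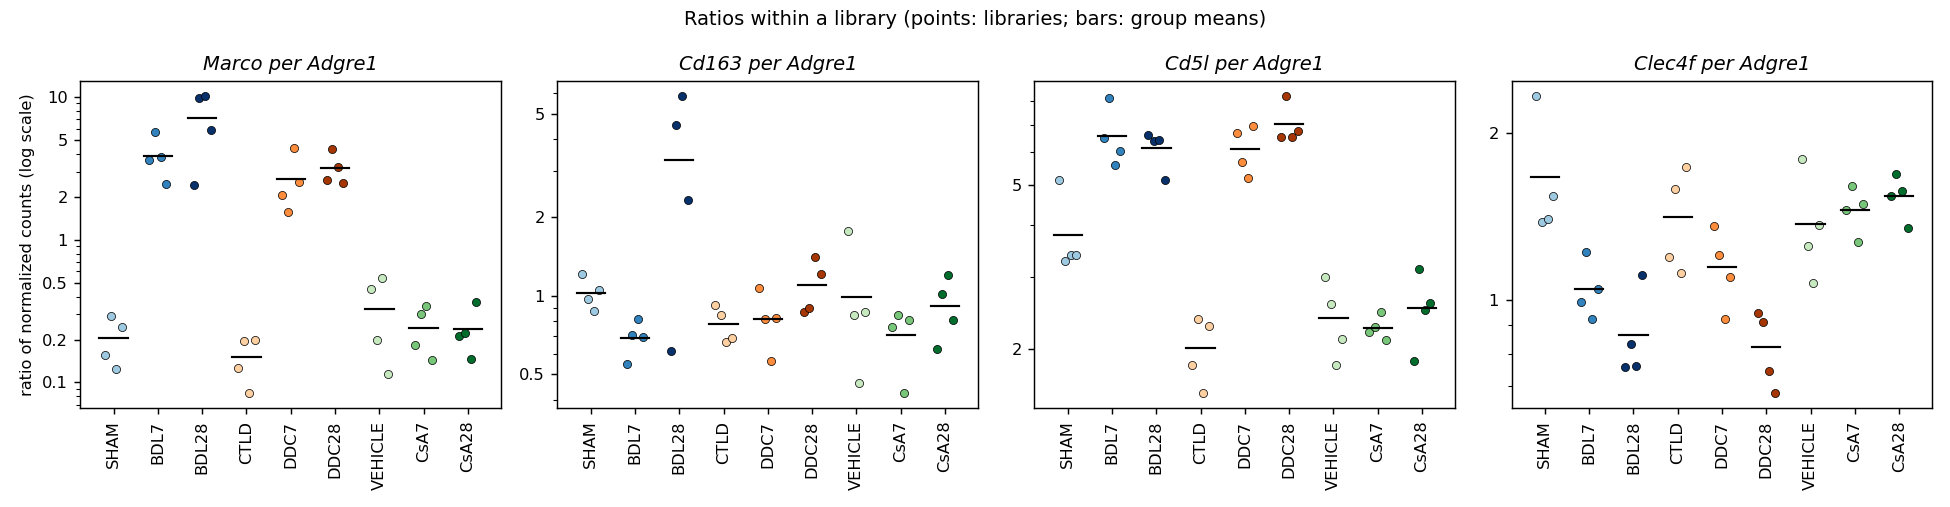
Ratio of 2 normalized counts within each library (log scale), with 1 point per library and a bar at the mean. Marco per Adgre1 separates all BDL and DDC libraries from the rest, and Clec4f per Adgre1 is lowest in DDC28 and BDL28.

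Markers of other cells moved in the same groups as the members. Of 13 general macrophage markers, 12 were called higher in BDL7, 8 in BDL28, 10 in DDC7 and 12 in DDC28, and none was lower. The shares of all tested genes called higher in these groups were 20.2%, 24.1%, 24.7% and 27.9%, and of those called lower 18.5%, 22.7%, 22.1% and 24.7%. The list counts that follow are to be read against these shares. Of 8 tested monocyte markers, 8, 6, 7 and 7 were higher, with medians of 3.86, 2.66, 2.86 and 3.39 on the log2 scale. F13a1, a transglutaminase of monocytes, rose by 4.65 in BDL7 (adjusted p = 1.2e-08) and by 4.89 in BDL28 (adjusted p = 1.8e-09). Summed monocyte markers ran from 75.7 to 110.1 in SHAM to 664 to 1227 in BDL7, and from 58.8 to 74.5 in CTLD to 473 to 719 in DDC28. Of 10 lipid-associated macrophage markers, 9, 8, 9 and 9 were higher and 1, 1, 1 and 0 lower (medians 3.30, 2.42, 3.10 and 4.14). Of 5 tested neutrophil markers 4, 4, 4 and 5 were higher, and of 6 cholangiocyte markers 6, 5, 4 and 5. Of 6 hepatocyte markers, 6, 5, 5 and 6 were lower and none higher. Chil3 and Clec4e, 2 of the monocyte markers, were at 0 in SHAM. How much of each member's level came from recruited cells was not tested.

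Of 11 tested genes from a list of 12 other Kupffer cell genes, 8 were higher and 1 lower in BDL7, 6 and 3 in BDL28, 8 and 1 in DDC7, and 7 and 1 in DDC28. The higher counts were above the share of all genes, and the 3 lower in BDL28 were near the 22.7% of all genes. C1qc, the third chain of C1q, rose by 1.15 in BDL7 (adjusted p = 4.3e-07), and Clec1b, a C-type lectin, by 1.35 in BDL28 (adjusted p = 4.8e-06) and 1.57 in DDC28 (adjusted p = 2.6e-07). Paqr9 fell in BDL28, by 2.43 (adjusted p = 6.0e-07), and hepatocytes express it too. Among 11 Kupffer cell transcription factors, 6 were higher and 2 lower in BDL7, 2 and 2 in BDL28, 3 and 2 in DDC7, and 5 and 2 in DDC28. The 2 higher in BDL28 were under the 24.1% of all genes, and the 3 higher in DDC7 and the 2 lower in each group were near their shares. Nr1h3, the oxysterol receptor that maintains Kupffer cell identity and that hepatocytes also express, fell by 0.87 in BDL28 (adjusted p = 2.2e-08) and 0.95 in DDC28 (adjusted p = 2.7e-09). Spic, the factor of haem-handling macrophages, rose by 1.16 in BDL28 (adjusted p = 0.029) and 1.70 in DDC28 (adjusted p = 0.0015).

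Of 14 tested genes for other scavenger and clearance receptors, 7 were higher and 1 lower in BDL7, 5 and 2 in BDL28, 7 and 0 in DDC7, and 8 and 2 in DDC28, where 24.1% of all tested genes were higher in BDL28 and 27.9% in DDC28. Msr1, a class A scavenger receptor like Marco, rose by 1.34 in BDL7 (adjusted p = 2.9e-08) and 2.04 in DDC28 (adjusted p = 8.0e-13). Cd36, a receptor for oxidized lipids, rose by 2.35 in BDL28 (adjusted p = 3.3e-10) and 2.74 in DDC28 (adjusted p = 1.0e-11). Markers of the sinusoidal endothelium, the wall on which Kupffer cells sit, were lower in 6 of 9 tested in BDL28, 7 in DDC28, 2 in BDL7 and 2 in DDC7, the last pair of counts near the 18.5% and 22.1% of all genes. In BDL7, DDC7 and DDC28 1 of the 9 was higher. Stab1, Stab2 and Mrc1 are in both the scavenger and the endothelial list, so the counts of these lists are not independent. Trem2 is in both the scavenger and the lipid-associated list. Total-count scaling turned the BDL28 counts of transcription factors to 6 higher and 1 lower, and those of scavenger receptors to 8 and 0.

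Over the 36 libraries, the 5 genes whose level was most like that of Clec4f were AW112010 (Pearson r = 0.90), Trim30a (0.90), Cxcl9 (0.88), Pyroxd2 (0.86) and Psmb8 (0.84), none of them a member. For Marco they were Ccr1 (0.95), Stx3 (0.95), Tm4sf4 (0.95), Tnfrsf12a (0.94) and Nid1 (0.94). By rank (Spearman) all were lower. In the same order they were 0.85, 0.81, 0.76, 0.55 and 0.69 for Clec4f, and 0.86, 0.83, 0.77, 0.75 and 0.72 for Marco. With group means removed, Clec4f varied with Folr2 (r = 0.86), Cd5l (0.83) and Adgre1 (0.78) over the 36 libraries, and Cd163 varied against Adgre1 (-0.38). These correlations are descriptions over libraries that share groups and scaling, and carry no p.

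No member was called with cyclosporin A. At 7 days 0 of 10 were called (1.88% of all tested genes were called higher and 2.14% lower), with changes from -0.40 to 0.09 and no unadjusted p under 0.05. At 28 days 0 of 10 were called (0.00794% and 0.0159%), with all 10 changes below 0, from -0.69 to -0.07, and 2 unadjusted p under 0.05. edgeR and DESeq2 called 0 members at both days. No member's libraries stood apart from VEHICLE at 7 days (5.01% of all tested genes were above and 5.26% below) or at 28 days (1.85% and 2.64%). Marco was 39.5, 21.3, 56.9 and 8.05 in VEHICLE, 12.1, 25.4, 41.4 and 12.9 in CsA7 and 16.8, 12.9, 9.51 and 25.7 in CsA28, groups that overlapped. Clec4f averaged 125 ± 26.4 in VEHICLE, 130.1 ± 23.8 in CsA7 and 104 ± 12.1 in CsA28 (SD, n = 4). Cd163 in VEHICLE was 156, 89.8, 49.3 and 60.3, highest in the 2 libraries with raised neutrophil markers, and the part of those markers was not tested. Between 7 and 28 days of cyclosporin A, 0 of 10 members were called (1.37% and 1.07%), 1 had an unadjusted p under 0.05, and no libraries stood apart (4.77% of all tested genes were above and 5.26% below).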

How the data were processed

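Gene expression was measured in 36 mouse liver libraries made with a 3' end kit that carries unique molecular identifiers. The deposited values, a signal, hold each gene's read count after division by a scaling factor of its library, as the authors made them. Every value came out as whole reads within 0.001 read. Per the submitters' processing notes, the tools were STAR 2.7.9a, UMI-tools 1.1.1, DESeq2, RSEM 1.3.1 and Trim Galore on build GRCm39, with settings not given in the sources used here. IDs were matched to symbols for 29121 of 29546 genes. limma 3.58.1 (R 4.3.3, trend and robust variance) was fitted on log2(value + 1) over all 36 libraries, keeping the 12596 genes that reached 10 in 4 or more libraries. Tests were two-sided, with Benjamini-Hochberg adjustment per comparison and calls at an adjusted p under 0.05. edgeR 4.0.16 and DESeq2 1.42.0 on recovered reads, other scalings, pseudocounts and filters, a replicate block and leaving out each library were alternatives. The fits were tested on simulated data. All members are named. For other lists the rule was up to 4 genes per comparison with the lowest adjusted p, or all where 6 or fewer were tested. Only some of these genes are named, and several lists are given as counts or sums alone. The lists of macrophage niche factors, dendritic cell markers and B and T cell markers are not described. The 5 genes with the highest Pearson r to Clec4f and to Marco are named, leaving out Rik, Gm and numeric symbols. The members, lists and rules were chosen with earlier results of these data known.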

Additional observations from a re-analysis of the deposited data

Results flagged for a closer look

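In 4 of the 90 sets of 4 libraries, 1 library lay far from the other 3, and chance alone marks about 1 in 20 such sets. Clec4f in SHAM replicate 1 was 163.8 against 117.8 in the next library. Vsig4 in DDC7 replicate 3 was 445 against 317, and C1qa in the same library was 284 against 193. Cd163 in DDC28 replicate 3 was 160.1 against 119.0.

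The effect of 28 days of ligation differed from that of 28 days of DDC, by the test of the difference in limma, for 3 members. The difference on the log2 scale was -1.65 for Cd5l, -1.32 for Folr2 and -0.93 for C1qa. Each value is the effect of ligation minus that of DDC, so the effect of ligation was the lower for all 3. Every SHAM library was above every CTLD library for Cd5l and for Folr2. The BDL28 and DDC28 libraries themselves overlapped for all 3 members. The part of the controls in these differences was not tested.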

How the results depend on the processing

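Of 110 member changes, 35 were called, and none of these changed sign under the 10 alternatives or the 36 fits without 1 library. A call was lost in some alternative for 6 of the 35, and 13 of 75 uncalled changes became called in some alternative. The members lower in BDL28 against SHAM numbered 1 with only the compared groups in the fit. Those higher in BDL28 against BDL7 numbered 1 by edgeR, by DESeq2 and without BDL28 replicate 1, so that leaving out a library gave 0 to 1. Those lower in DDC28 against DDC7 numbered 1 with quantile normalization, 2 by edgeR, 2 by DESeq2, 2 with only the compared groups, and 0 to 1 when a library was left out. The same count was 1 with the replicate block (Timd4, adjusted p = 0.0499 in limma), but samples of equal number did not deviate together in most pairs, so the numbers were not taken to pair them. The sign turned in some alternative for 18 of the 75 uncalled changes. Of those given singly in the report, Adgre1 in BDL28 was 0.074 with total-count scaling and ran from -0.49 to 0.033 when a library was left out (0.018 and 0.033 without BDL28 replicates 2 and 3), Timd4 in DDC28 ran from -0.021 (without CTLD replicate 2) to 0.62, and C1qb in BDL28 against BDL7 from -0.25 to 0.056 (0.056 without BDL7 replicate 1, 0.023 without BDL28 replicate 3). Total-count scaling moved the counts over all genes in BDL7 from 2549 to 4923 higher and from 2327 to 922 lower, and the fit with only the compared groups moved those higher in BDL28 against BDL7 from 1766 to 1127 and in DDC28 against DDC7 from 261 to 550. The cause of these changes was not tested. Low read numbers limit Timd4 and, in controls, Marco.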
